A study of Rattus norvegicus with 6 samples.

Results

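The CCN genes Ctgf, Cyr61, Nov, Wisp1 and Wisp2 encode the secreted proteins CCN2, CCN1, CCN3, CCN4 and CCN5. They are the rows of the deposited count table whose symbol is one of these names, 5 rows of 21857, and newer annotations call them Ccn2, Ccn1, Ccn3, Ccn4 and Ccn5. The family was chosen from the contrast described here, in which Ctgf and Cyr61 had been seen to lie low with branched chain amino acids (BCAA). The BCAA against vehicle values of the members are therefore given as a description. Their p-values only place them within the fit over all genes and support no claim about the family.

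The cells were adipose-derived mesenchymal stem cells of Sprague Dawley rats, stromal cells grown out of fat tissue. They were kept in BCAA-free, high-glucose DMEM with 10% fetal bovine serum and antibiotics. Vehicle (3 libraries) or 3.432 mM BCAA (3 libraries) was given for 12 h, and all 6 libraries also received 100 µM hydrogen peroxide, an oxidant. Controls were thus cells short of leucine, isoleucine and valine apart from what serum supplied, so added BCAA and relief of a shortage cannot be told apart. The labels give the concentration but not the composition of the BCAA. They also do not state the origin of the replicates (animals, cultures or repeat preparations), and p-values cover only the spread among these 6 libraries, which may be technical.

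CCN proteins are matricellular: they sit in the extracellular matrix and bind integrins, proteoglycans and growth factors, rather than forming the scaffold itself. They share an insulin-like growth factor binding module, a von Willebrand factor type C module and a thrombospondin repeat, and all members but CCN5 end in a cystine knot. Ctgf and Cyr61 are classical targets of the cofactors YAP and TAZ, which act through TEAD factors on DNA, and they also respond to actin tension through SRF and to TGF-beta through SMAD factors. Wisp1 and Wisp2 were first described as genes induced by Wnt signalling, and Nov is often regulated opposite to Ctgf in fibroblasts and mesangial cells.

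RefSeq promoters were at hand for 2 of the 5 members, Ctgf and Cyr61. The 250 bases before each annotated start are printed because these are the members whose counts moved most firmly, and because the TEAD sites through which YAP and TAZ act lie close to the start. Both genes lie on the minus strand of assembly GRCr8, and each run is read 5′ to 3′ along the gene. Capitals mark the TEAD core (GGAATG, or CATTCC where it lies on the opposite strand) and the TATA box (TATAAA).
Ctgf, chr1:22624615-22624864: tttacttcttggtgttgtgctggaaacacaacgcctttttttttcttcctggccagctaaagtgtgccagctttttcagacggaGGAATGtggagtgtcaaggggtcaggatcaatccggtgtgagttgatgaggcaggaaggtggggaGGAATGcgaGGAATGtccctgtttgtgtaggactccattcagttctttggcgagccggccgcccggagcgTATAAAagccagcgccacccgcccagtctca
Cyr61, chr2:237225690-237225939: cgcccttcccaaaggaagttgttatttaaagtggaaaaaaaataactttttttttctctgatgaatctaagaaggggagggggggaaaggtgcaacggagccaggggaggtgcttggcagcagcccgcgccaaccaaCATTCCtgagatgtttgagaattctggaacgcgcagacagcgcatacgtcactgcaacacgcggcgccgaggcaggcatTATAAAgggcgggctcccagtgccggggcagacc

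The Ctgf window held 3 TEAD cores and the Cyr61 window 1. With the first transcribed base counted as 0, the Ctgf cores began at -166, -101 and -92, all on the gene's own strand, and the Cyr61 core began at -113 on the opposite strand. Of 33469 RefSeq promoters of this length, 12.1% held at least 1 core on either strand and 0.0807% (27 promoters) held 3 or more. A TATA box began at -31 in Ctgf and -34 in Cyr61, and 12.9% of promoters held one. The short SMAD box (GTCTG on either strand), present in 42.9% of promoters, occurred once before the Ctgf start, beginning at -174, and at -80 and -6 in Cyr61. No match was found in either window for the AP-1 motif TGANTCA, the TCF/LEF core CTTTGA or the CArG box bound by SRF, which occurred in 6.34%, 13.9% and 1.5% of promoters. A match is a description of the letters, and its absence says only that these letters are not in this window.

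**Figure D1:**
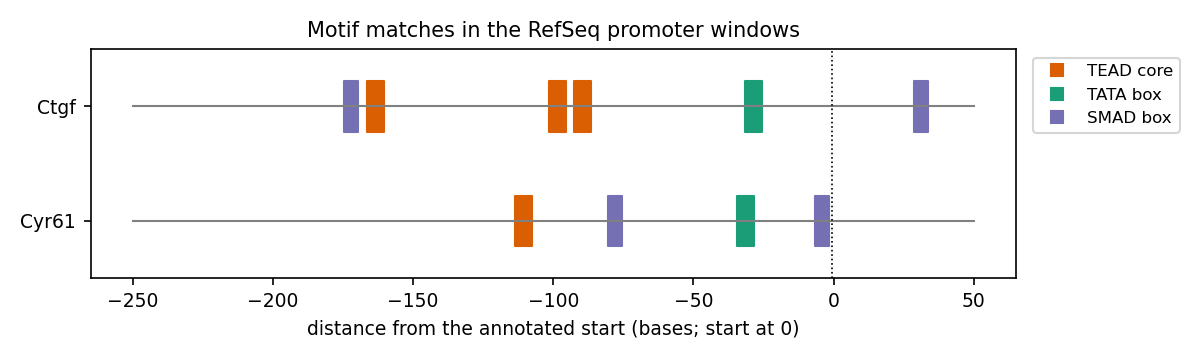
Motif matches on either strand in the RefSeq promoter windows of Ctgf and Cyr61, by distance in bases from the annotated start (dotted line). Ctgf has 3 TEAD cores, 2 of them close together, and Cyr61 has 1.

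Library totals ran from 12725344 to 15739731 counts. No library was a copy of another: the chi-square per degree of freedom between any pair was at least 2.65. Vehicle replicate 1 stood apart. By this measure it gave 16.9 and 15.1 against vehicle replicates 2 and 3, which gave 2.65 against each other. Against BCAA replicates 1, 2 and 3 it gave 18.1, 15.8 and 9.38, so BCAA replicate 3 was nearer to it than the other vehicle libraries. It held 6.58% of its counts on mitochondrially encoded genes, against 4.91% and 4.92% in the other vehicle libraries. The BCAA libraries held 5.60% to 6.24%. Calls that change without vehicle replicate 1 are given for the members and for the other genes named with their values. Levels are given as CPM, a gene's count scaled to the library's total count, here with TMM factors. They are compared between libraries and not between genes, since no transcript lengths were at hand. Differences are log2 fold changes of BCAA minus vehicle from edgeR's quasi-likelihood fit over all 12298 genes that passed the low-count filter, with p-values adjusted over all of them. All 5 members passed that filter. The fit called 28 genes at an adjusted p under 0.05 (0.228%), of which 21 were lower (0.171%) and 7 higher (0.0569%) with BCAA. Without TMM factors the split was 18 lower and 11 higher, and with DESeq2 it was 72 lower and 55 higher.

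Ctgf was the member with the clearest difference, and Cyr61 came next. Nov lay slightly lower with BCAA without passing, Wisp2 was lower in sign with few counts and did not pass, and Wisp1 did not separate the groups. Of the 5 members 2 were called lower, 0 higher, against 0.171% of all genes called lower, a count that the choice of the family from this contrast fixed in part. In 4 of the 5 all BCAA libraries lay below all vehicle libraries, against 8.76% of all genes tested. In these bulk libraries fewer cells making a transcript and less of it per cell cannot be told apart.

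**Figure D2:**
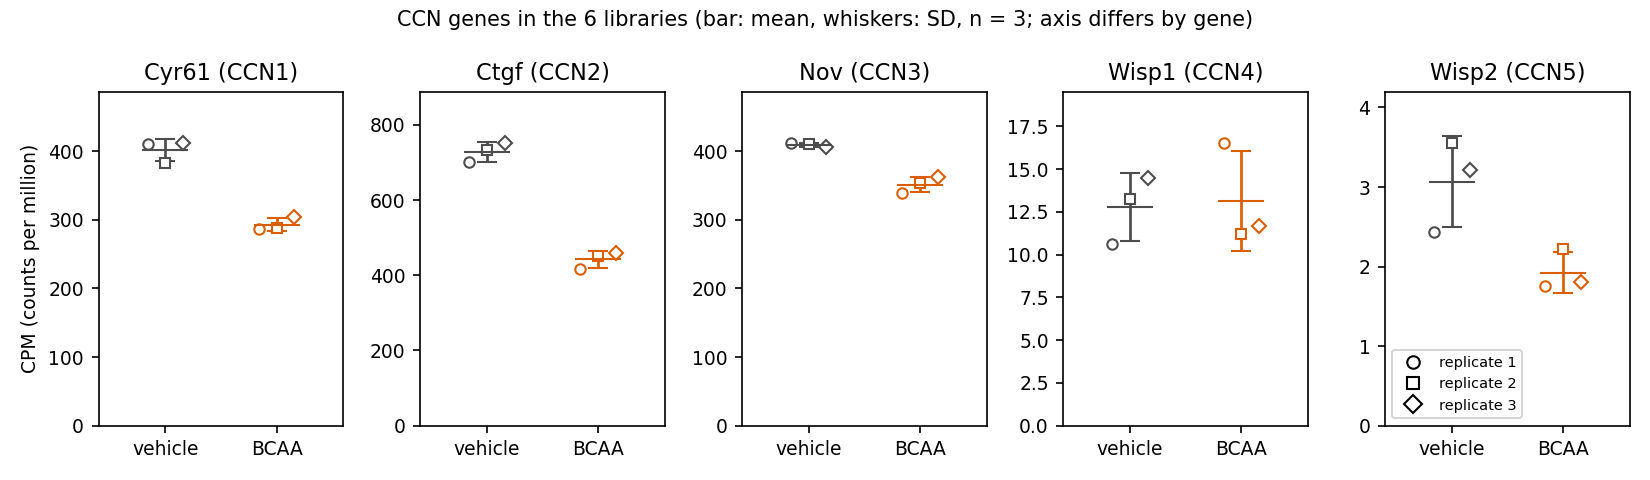
CPM of each CCN gene in each library, with the group mean and SD (n = 3), each panel on its own axis from 0. The groups are apart for Cyr61, Ctgf, Nov and Wisp2 and overlap for Wisp1, where BCAA replicate 1 is the highest library.

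Ctgf encodes the profibrotic matricellular protein induced by TGF-beta and by stretch. Its vehicle libraries held 700, 732 and 752 CPM (replicates 1, 2 and 3, the order used throughout), and its BCAA libraries 416, 452 and 459 CPM. Every BCAA library lay far below every vehicle library, and the gap between groups was several times the range within either. From 728 ± 26.2 CPM (SD, n = 3) with vehicle it fell 1.65-fold to 442 ± 23.2 CPM (SD, n = 3) with BCAA. The log2 fold change was -0.72 (SE 0.06, 95% interval -0.85 to -0.58). In the edgeR fit over all genes its p-value ranked 2 of 12298 (adjusted p = 0.00014), and over 11 alternatives the adjusted p did not exceed 0.017. Its deposited counts, 5867 to 11529 per library, carry a counting error of 0.985% with vehicle, well under the spread between libraries of 3.59% with vehicle and 5.24% with BCAA.

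Cyr61, an immediate-early gene whose product drives cell adhesion and angiogenesis, followed the same direction with a smaller change. The vehicle libraries held 411, 383 and 412 CPM and the BCAA libraries 287, 288 and 304 CPM. The lowest vehicle library thus stayed well above the highest BCAA library. It fell 1.37-fold, from 402 ± 16.6 to 293 ± 9.82 CPM (SD, n = 3 each), a log2 fold change of -0.46 (SE 0.06, 95% interval -0.59 to -0.32) with an edgeR adjusted p of 0.0059 and rank 8. The call was lost without BCAA replicate 1 (adjusted p = 0.088) or BCAA replicate 2 (adjusted p = 0.098), while the log2 fold change stayed at -0.44 in both. With the replicate number as a block in the edgeR fit it was also lost (-0.46, adjusted p = 0.11).

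Nov encodes CCN3, a member that often opposes CCN2 in mesenchymal cells. Its difference here had the same sign as that of Ctgf. The vehicle libraries were nearly equal, at 412, 410 and 406 CPM, and the BCAA libraries lay at 339, 353 and 362 CPM. The groups did not overlap, but the step was small: 409 ± 3.11 against 351 ± 11.4 CPM (SD, n = 3 each), 1.17-fold lower. Its log2 fold change was -0.22 (SE 0.06, 95% interval -0.35 to -0.09), and with an edgeR adjusted p of 0.14 it did not pass. Without vehicle replicate 1 the value was -0.21 and the adjusted p 0.019. The vehicle spread of 0.759% was below the 1.31% that counting alone gives, so these 3 libraries understate the error of Nov. Its gene-wise dispersion in edgeR, an estimate of the spread between libraries, corresponds to a coefficient of variation of 6.12%. The SE and p-value come from the quasi-likelihood test and not directly from that value.

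Wisp1, a Wnt-induced gene also raised in fibrosis, was sparse, with 148 to 245 counts per library. The vehicle libraries were at 10.6, 13.3 and 14.5 CPM and the BCAA libraries at 16.5, 11.2 and 11.7 CPM. The groups overlapped, and the highest and second lowest of the 6 libraries were both BCAA libraries. The means were 12.8 ± 1.99 and 13.1 ± 2.95 CPM (SD, n = 3 each), with a log2 fold change of 0.04 (SE 0.17, 95% interval -0.32 to 0.40; edgeR adjusted p = 0.95). That interval spans falls and rises of about the size seen for Nov, so a change of that size was not detectable here. The sign rested on single libraries: it was -0.07 without vehicle replicate 1 and -0.16 without BCAA replicate 1. Only 7.76% of 1971 genes of like abundance had a larger gene-wise dispersion in edgeR than Wisp1.

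Wisp2, which encodes the short member CCN5, held 23 to 56 counts per library. That gave 2.43, 3.55 and 3.21 CPM for the vehicle libraries and 1.75, 2.22 and 1.80 CPM for those given BCAA. The groups did not overlap, but the lowest vehicle and highest BCAA libraries were close. The means were 3.07 ± 0.574 and 1.92 ± 0.255 CPM (SD, n = 3 each). The log2 fold change of -0.67 was near that of Ctgf but had an SE of 0.26 and a 95% interval of -1.23 to -0.11, and the edgeR adjusted p of 0.33 did not pass. Counting alone gives a spread of 15.1% in the vehicle and 18.9% in the BCAA libraries, against 18.7% and 13.2% observed. The remaining family gene, Wisp3 (CCN6), had 3 counts in vehicle replicate 1 and 0 in the other 5 libraries and was not tested.

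**Figure D3:**
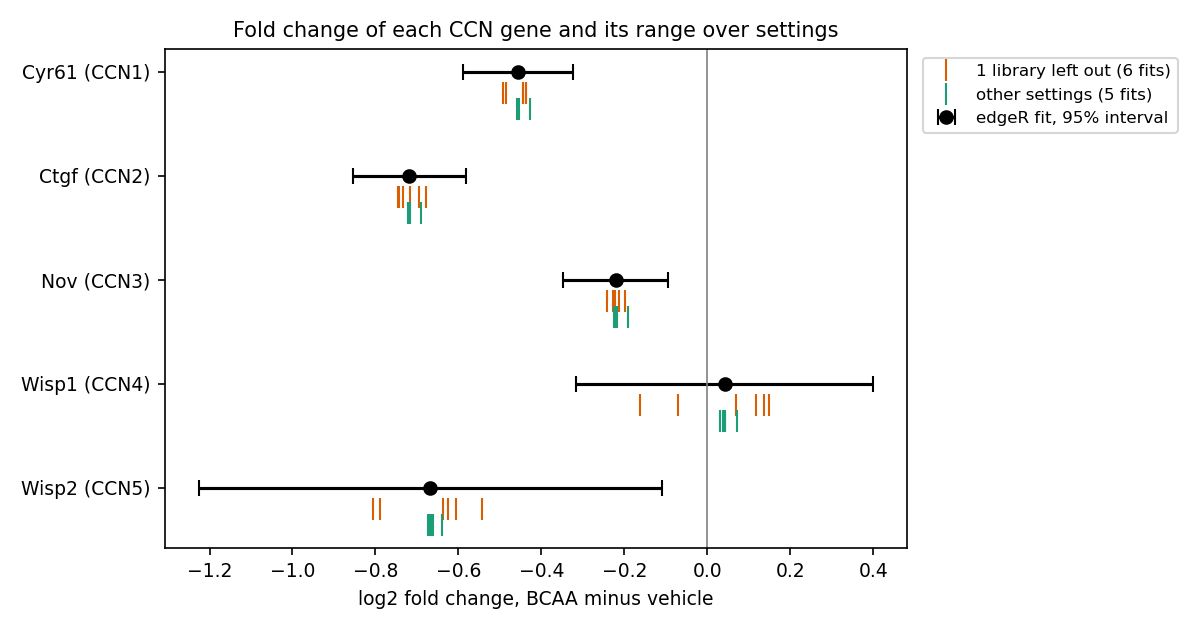
Log2 fold change (BCAA minus vehicle) of each CCN gene with its 95% interval, and below each the values with 1 library left out (6 fits) and under the other settings (5 fits). Ctgf, Cyr61, Nov and Wisp2 keep their sign in all 11, and Wisp1 lies on both sides of 0.

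The balance within the family restates the member values above in another form. It is given as a description, since the members were chosen from this contrast. Together the 5 genes took 0.148%, 0.154% and 0.159% of a library's counts with vehicle, in replicate order, and 0.108%, 0.112% and 0.114% with BCAA. The ranges did not overlap, and the share was 0.154% ± 0.00559 against 0.111% ± 0.00259 (SD, n = 3 each). Ctgf supplied 45.6% to 47.5% of the family's counts with vehicle and 39.2% to 40.9% with BCAA. Nov supplied 25.6% to 26.8% and then 31.8% to 32.0%, so its part of the family's reads grew although its own level lay lower. The part of Cyr61 overlapped between groups, at 24.8% to 26.7% and 26.0% to 27.0%. Shares between genes depend on transcript length, and only their difference between libraries is read here.

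Ctgf and Cyr61 did not move by the same amount. The ratio of Ctgf to Cyr61 counts was 1.70, 1.91 and 1.82 with vehicle and 1.45, 1.57 and 1.51 with BCAA. Every vehicle ratio exceeded every BCAA ratio. On the log2 scale the ratio was 0.86 ± 0.08 with vehicle and 0.59 ± 0.06 with BCAA (SD, n = 3 each), a difference of -0.26 that ran from -0.31 to -0.22 with 1 library left out. Against Nov, the Ctgf ratio went from 1.78 ± 0.0768 to 1.26 ± 0.0287 and the Cyr61 ratio from 0.982 ± 0.0430 to 0.834 ± 0.0164 (SD, n = 3 each). These ratios do not depend on library scaling. No test is given for them, since the members were chosen from this contrast.

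The genes named below come from 10 lists of the pathways around CCN proteins, written with earlier results of these data known, so their counts are not independent evidence of a direction. They hold 138 symbols, of which 133 were in the table and 120 were tested. Of the 120, 6 were called lower and 0 higher with BCAA (median log2 fold change -0.02, against 0.00 over all genes tested). Without vehicle replicate 1 there were 23 lower and 2 higher, and with any other single library left out only 2 or 3 lower. That fit called 500 of all genes and the others 7 to 11. Counts of genes at an unadjusted p under 0.05 are given below for most lists. Such values were common among all genes: in edgeR, Timp1 had an unadjusted p of 0.0489 and ranked 1415 of 12298. Whether any list exceeded that background was not tested.

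Receptors of CCN proteins were mostly higher in sign, with no call, while 6244 of all 12298 genes tested were higher in sign. Of 15 integrin chains, low-density lipoprotein receptor family members and other receptors tested, none was called by edgeR (2 at an unadjusted p under 0.05, both higher), 11 were higher and 4 lower in sign, and the median log2 fold change was 0.05. For Itga5, the integrin chain that binds fibronectin, the vehicle libraries held 681, 683 and 701 CPM and those given BCAA 854, 820 and 831 CPM. The BCAA libraries all lay above the vehicle libraries (log2 fold change 0.28, SE 0.06), and the edgeR adjusted p was 0.061. DESeq2 called it higher, as did the fits that dropped the TMM factors, the filter or vehicle replicate 1. Igf2r, the mannose 6-phosphate receptor that can take up CCN2, had 0.27 (SE 0.09), and Itgav, the shared chain of the vitronectin-type integrins, 0.22 (SE 0.11). The median of this list was -0.02 without vehicle replicate 1.

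The matrix and growth factor partners that CCN proteins bind gave no call by edgeR or DESeq2 among 10 tested, with 2 at an unadjusted p under 0.05 (median -0.09). For Tgfb1, which CCN2 can bind and which induces it, the vehicle mean was 419 ± 18.8 CPM and the BCAA mean 367 ± 29.5 CPM (SD, n = 3 each; log2 fold change -0.19, SE 0.07, edgeR adjusted p = 0.31). It was called lower without vehicle replicate 1 (-0.22, edgeR adjusted p = 0.036). Vegfa, the angiogenic factor that CCN2 can hold inactive, had 0.15 (SE 0.06), and fibronectin, Fn1, had -0.11 (SE 0.07).

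Among the factors upstream of Ctgf and Cyr61, the transcripts of YAP (Yap1) and TAZ (Wwtr1) were not called, with log2 fold changes of 0.18 (SE 0.11) and 0.09 (SE 0.10). Of 19 genes for YAP, TAZ, TEAD factors and the Hippo kinases, edgeR called 2 lower and 0 higher (median 0.03). By sign 12 lay higher and 7 lower, and 4 had an unadjusted p under 0.05, 2 higher and 2 lower. Amotl2, an angiomotin family gene that restrains YAP and is itself a YAP target, had 111, 122 and 122 CPM in the vehicle libraries and 84.5, 86.7 and 82.7 CPM in the BCAA libraries. Its groups were well apart, and it fell by 0.48 on the log2 scale (SE 0.07, edgeR adjusted p = 0.0099), close to the value of Cyr61. Vgll3, a TEAD cofactor, had 44.6, 54.7 and 58.4 CPM in the vehicle libraries, with a clearly lower 37.7, 31.6 and 32.3 CPM after BCAA (log2 fold change -0.63, SE 0.11, edgeR adjusted p = 0.026). Both lost the call when any library other than vehicle replicate 1 was left out, and with the replicate number as a block. Vgll3 was also not called without TMM factors. These counts measure transcripts, and YAP and TAZ act mainly through their location and phosphorylation, which were not measured.

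Other YAP and TAZ target genes were mostly lower in sign, and 1 passed. Of 18 tested, edgeR called Amotl2 alone, and by sign 12 lay lower and 6 higher (median -0.14). In edgeR 7 had an unadjusted p under 0.05, all lower. Igfbp3, an IGF carrier, came closest. Its vehicle libraries held 1162, 1083 and 1097 CPM, its BCAA libraries 876, 906 and 920 CPM. Its groups did not overlap (log2 fold change -0.31, SE 0.06), and the edgeR adjusted p was 0.054. It was called lower with DESeq2 (adjusted p = 0.0024), with edgeR on unfiltered counts (0.012) and when vehicle replicate 1 was dropped (0.0027). Ccdc80, a matrix protein gene, had -0.19 (SE 0.06) and Tgfb2 -0.36 (SE 0.13). Without vehicle replicate 1, 5 of the 18 were called lower, Ccdc80 among them (edgeR adjusted p = 0.043). Ankrd1, often measured beside Ctgf and Cyr61, was under 1 CPM in all 6 libraries and was not tested. Myh9, a myosin gene that nearly all cells use, was also near 0 (0.09 CPM with vehicle), so a level near 0 in this table need not mean that the transcript was missing.

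SRF and its actin-sensing cofactors control a set of contractile genes, and these held most of the calls around the CCN family. Of 14 tested, Tagln, Acta2, Myl9 and Tpm2 fell and 0 rose, and 12 were lower in sign (median -0.36). In edgeR 9 had an unadjusted p under 0.05, all lower, and DESeq2 called 7 lower and 0 higher. The median lay between -0.40 and -0.31 over the 11 alternatives, and 8 were called lower without vehicle replicate 1. Acta2, smooth muscle actin, went from 36.5, 36.4 and 35.0 CPM to 20.0, 20.4 and 19.0 CPM, a larger change (log2 fold change -0.86, SE 0.09) than that of Ctgf. Tagln, an actin-bundling protein gene, had 805, 820 and 758 CPM and then 507, 534 and 515 CPM (-0.61, SE 0.06). Both kept their call in all 11 alternatives. Myl9, a myosin light chain, had -0.50 (SE 0.08; edgeR adjusted p = 0.015), and Tpm2, a tropomyosin, -0.50 (SE 0.08; edgeR adjusted p = 0.017). Myl9 kept its call when vehicle replicate 1 or BCAA replicate 2 was dropped and lost it with each other library left out. Tpm2 kept its call when vehicle replicate 1 or 3 was dropped and lost it with each other library left out. With the replicate number as a block neither Myl9 nor Tpm2 was called. The vehicle mean of Srf itself was 54.6 ± 8.65 CPM and its BCAA mean 45.9 ± 4.74 CPM (SD, n = 3 each; log2 fold change -0.25, SE 0.11, edgeR adjusted p = 0.42). Srf was called lower without vehicle replicate 1 (-0.37, edgeR adjusted p = 0.016).

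The TGF-beta arm gave no call by edgeR or DESeq2 with all libraries. In edgeR 4 of 11 and 4 of 13 genes had an unadjusted p under 0.05. Timp1, among these 13, had an unadjusted edgeR p of 0.0489 and ranked only 1415 of all 12298 genes tested. Of 11 ligands, receptors and SMADs the median log2 fold change was -0.02 (-0.03 to 0.02 over the alternatives), and of 13 classical target genes it was -0.11, with 10 lower and 3 higher in sign. Pmepa1, a TGF-beta feedback gene, had -0.22 (SE 0.07), and the collagen crosslinker Lox had -0.15 (SE 0.06). Smad7, the inhibitory SMAD, had 0.13, and Col1a1 had -0.11 (SE 0.15). Without vehicle replicate 1, edgeR called 2 of the 11 lower, Tgfb1 and Tgfbr2 (-0.29, adjusted p = 0.030). It also called 3 of the 13 targets lower: Col1a1 at -0.29 (adjusted p = 0.0058), Ltbp2 at -0.24 (0.012) and Pmepa1 at -0.24 (0.020). Ctgf differed by more than any of these 13 in the same libraries, which its choice from this contrast fixed in part. That difference between genes was not tested.

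For Wisp1 and Wisp2, the Wnt response list gave no call by edgeR or DESeq2 among 10 genes tested, with 2 at an unadjusted p under 0.05 (median 0.08). Sfrp1, a secreted Wnt antagonist, had 332, 309 and 308 CPM in the vehicle libraries against 260, 273 and 270 CPM after BCAA. The groups did not overlap (log2 fold change -0.24, SE 0.06, edgeR adjusted p = 0.13). Without vehicle replicate 1 the list's median was 0.01, and edgeR called Sfrp1 (-0.20, adjusted p = 0.027) and its relative Sfrp2 (-0.23, adjusted p = 0.034) lower. Axin2, the common reporter of Wnt activity, was low, at 5.10 ± 0.760 and 5.90 ± 1.11 CPM (SD, n = 3 each), and 7 of the 17 listed genes in the table were under 1 CPM. Proteins that share the IGF binding module with the CCN family split: Igfbp3 lay lower, Igfbp5 higher (log2 fold change 0.29, SE 0.06, edgeR adjusted p = 0.067). By edgeR none of the 9 was called, with 4 at an unadjusted p under 0.05. DESeq2 called Igfbp3 lower and Igfbp5 higher (adjusted p = 0.0065 for Igfbp5), as did edgeR on unfiltered counts. With vehicle replicate 1 dropped, edgeR called 3 lower and 1 higher.

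**Figure D4:**
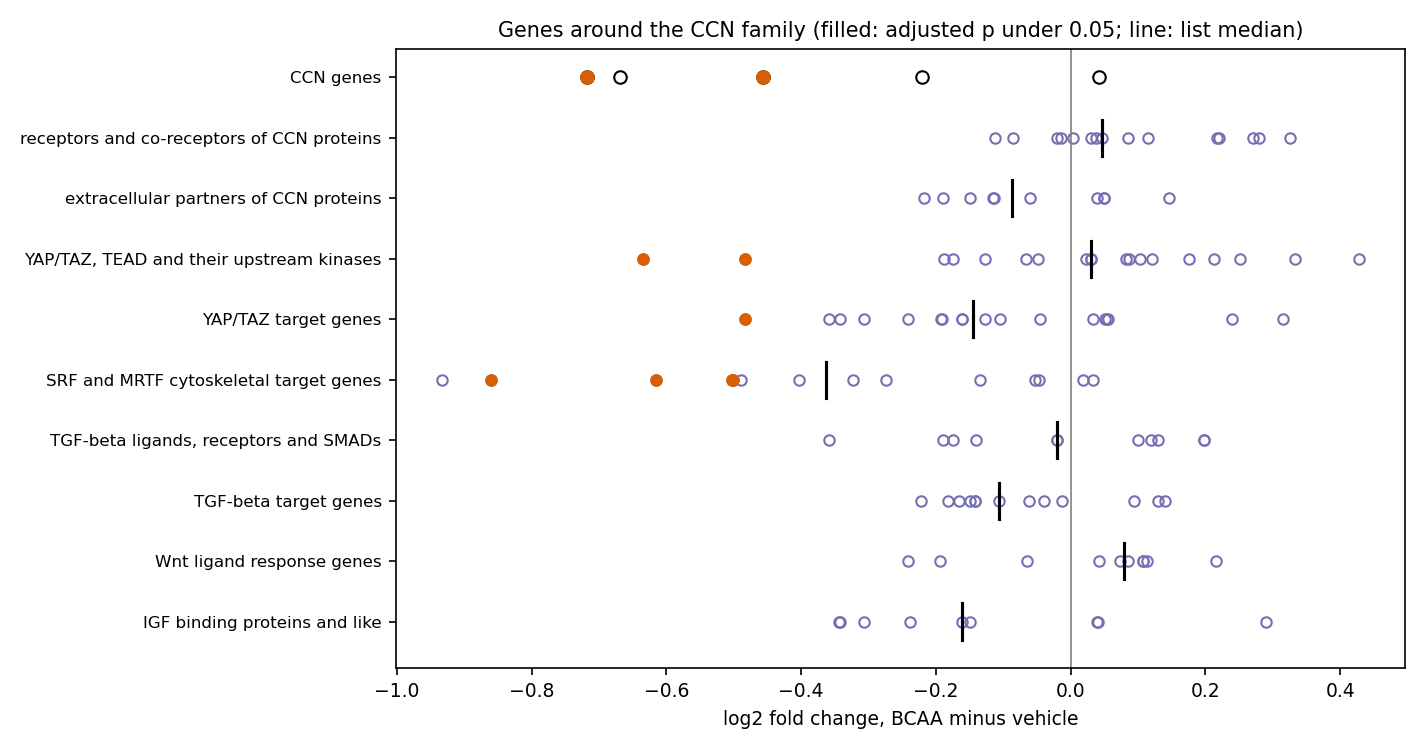
Log2 fold change (BCAA minus vehicle) of the CCN genes and of each tested gene in 9 of the 10 lists around them, with filled points for an adjusted p under 0.05 and a line at each list's median. The filled points are Ctgf and Cyr61, Amotl2 (in 2 lists), Vgll3, Tagln, Acta2, Myl9 and Tpm2, all left of 0.

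Cell type markers were read in the same libraries. Stromal markers were well expressed, with Pdgfra at 269 CPM, Thy1 at 347 CPM and Eng at 182 CPM with vehicle, and edgeR called none of 10 tested (1 at an unadjusted p under 0.05). DESeq2 called the intermediate filament gene Vim lower (log2 fold change -0.26, adjusted p = 0.022), as did edgeR on unfiltered counts, and dropping vehicle replicate 1 gave calls for Vim and Col1a1. Of 7 endothelial markers 5 were under 1 CPM, including Cdh5 and Vwf, and Cldn5 was at 0 in all libraries. Of 8 adipocyte markers 5 were under 1 CPM, including Adipoq, and edgeR called none of the 3 tested. The list still summed to 374 to 463 CPM (vehicle) and 401 to 423 CPM (BCAA). Leukocyte markers were present at a low level, with a summed level of 289 to 295 CPM (vehicle) and 291 to 310 CPM (BCAA), Ptprc at 15.1 CPM with vehicle. Neither edgeR nor DESeq2 called any of the 9 (1 at an unadjusted p under 0.05 in edgeR), and without vehicle replicate 1 Laptm5 was called higher (0.28, edgeR adjusted p = 0.022). Among mesothelial and epithelial markers Msln was at 67.4 CPM with vehicle and the other 6 were under 1 CPM. In the smooth muscle and pericyte list, Tagln and Acta2 fell among 9 tested, 7 were lower and 2 higher in sign (Abcc9 0.32, SE 0.31, and Notch3 0.09, SE 0.52), and the list summed to 897 to 960 CPM in the vehicle libraries and 616 to 645 CPM in the others. Most of that sum was Tagln, at a mean of 794 CPM with vehicle and 519 CPM with BCAA. Of its markers outside the SRF list, none was called, with Myh11 at -0.23 (SE 0.09) and Des at -0.18 (SE 0.09), and Rgs5 and Notch3 were under 1 CPM. DESeq2 also called Cnn1 lower. Whether a change in cells of this type bears on the CCN values was not tested.

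Profiles most like each member were found by the root mean square difference of log2 CPM over the 6 libraries, each gene centred on its own mean, among 11833 other genes with a mean of at least 1 CPM. Because the measure follows the group difference, it returns genes that moved by a like amount. Nearest to Cyr61 were Pak1, a kinase that signals to the actin cytoskeleton (0.03), LOC100365810 (0.04), Snrnp35 (0.05), Igf1 (0.05) and the calponin gene Cnn1 (0.05). Pak1 (log2 fold change -0.47, SE 0.07, edgeR adjusted p = 0.014) and LOC100365810 (-0.43, SE 0.07, edgeR adjusted p = 0.017) were themselves called. Snrnp35, Igf1 and Cnn1 were not. Nearest to Ctgf were Gli4 (0.07), the cysteine dioxygenase gene Cdo1 (0.08), Tagln (0.09), the pentraxin gene Ptx3 (0.09) and Clec11a (0.10). Cdo1, Tagln and Ptx3 were called lower. Gli4 and Clec11a were not called and were sparse, with vehicle means of 2.29 and 1.99 CPM. Ctgf and Cyr61 lay 0.14 apart, so neither was among the other's nearest profiles. Nov was matched much more closely, by Sfxn3, Pdlim1, Auh, Tmem165 and Ugdh (0.02 each), a tightness that goes with its small step and small spread. For Wisp1 the nearest 5 (LOC687707, Cbx8, Cacna2d1, Haus6 and Pde10a) differed by 0.06 each, and for Wisp2 the nearest, the keratin gene Krt80, by 0.10.

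**Figure D5:**
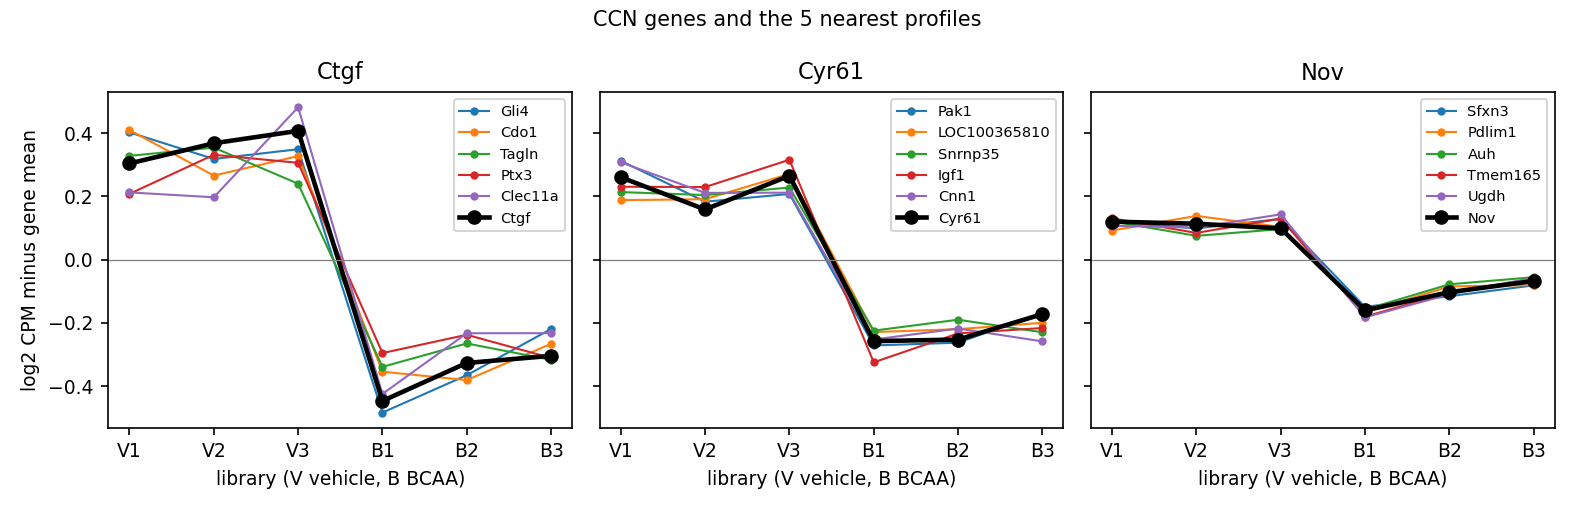
Log2 CPM minus the gene's mean in vehicle (V1 to V3) and BCAA (B1 to B3) libraries for Ctgf, Cyr61 and Nov (black) and the 5 nearest profiles of each; lines join values of 1 gene and imply no order. The step between groups is largest in the Ctgf panel and smallest in the Nov panel.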

How the data were processed

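The authors deposited raw read counts per gene symbol for 6 libraries, not normalized and not pooled. RNA was isolated with TRIzol, and libraries were made from 3 µg with a NEBNext Ultra kit, per the labels' protocols. The submitters' processing notes list Trimmomatic, FastQC, STAR, HTSeq and build rn6. The sources used here give no versions, annotation or strand setting, so counts of genes that overlap on either strand are uncertain.

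Columns were matched to libraries by title. The main test was edgeR 4.0.16 (R 4.3.3): quasi-likelihood fit with robust estimation, group as the only term, TMM scaling, filterByExpr (minimum count 10, minimum total 15) and Benjamini-Hochberg adjustment over 12298 genes at 0.05. The SE is the log2 fold change divided by the square root of F. Alternatives were DESeq2 1.42.0, no TMM factors, no filter, no robust estimation, the replicate number as a block and each library left out. Profiles used a prior count of 2. The fits were tested on simulated data.

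The members and lists were chosen with earlier results of these data known. Genes named were the members, each list's called genes and up to 3 of its smallest p-values, and the 5 nearest profiles. Yap1, Wwtr1, Srf, Tgfb2, Smad7, Col1a1, Ltbp2, Axin2, Ankrd1, Myh9 and the markers were named after their values were seen. So were the genes named with their TEAD cores that are not members, list genes or nearest profiles. Promoters are RefSeq's (GRCr8) and no rn6 coordinates were used. Of the 10 lists, 1 is counted in the totals and is otherwise not reported here.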

Additional observations from a re-analysis of the deposited data

How the results depend on the processing

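Ctgf kept its direction and its call in all 11 alternatives (log2 fold change -0.75 to -0.68, adjusted p at most 0.017). Cyr61 lay between -0.49 and -0.44 with 1 library left out, losing its call without BCAA replicate 1 or 2. With the replicate number as a block it was at -0.46 (adjusted p = 0.11) and was not called. Nov lay between -0.24 and -0.20 with 1 library left out and passed without vehicle replicate 1 alone. Wisp1 lay between -0.16 and 0.15, reversed to -0.07 without vehicle replicate 1 and to -0.16 without BCAA replicate 1, and never passed. Wisp2 lay between -0.81 and -0.54 and never passed, with no adjusted p from DESeq2. The cause of these shifts was not tested.

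Of all genes 127 were called with DESeq2, 124 without the low-count filter, 6 with the replicate block and 7 to 500 with 1 library left out, 500 without vehicle replicate 1. Of the listed pathway genes the counts were 12, 12, 2 and 2 to 25. With the replicate block Acta2 and Tagln passed, and Amotl2, Vgll3, Myl9 and Tpm2 lost their calls. The labels do not say whether equal replicate numbers mark paired libraries. Deviations from the group means correlated across genes at -0.07, 0.11 and -0.15 between libraries of equal number. With 3 libraries per group, these values cannot show whether the libraries were paired. Before the Ctgf start there was 1 SMAD box, and a second match lay at 29 to 33 after it. Of the 25 nearest profiles, 23 were found again with a prior count of 0.5. The fall in the family's share and the Ctgf to Cyr61 ratio kept their sign with each library left out. For Wisp2 the counting error was close to or above the spread between libraries, and for Wisp1 it was smaller than that spread.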

Other observations

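Of the 12298 genes tested, 9678 had a RefSeq promoter, and 951 of these (9.83%) held at least 1 TEAD core in the 250 bases before the start. This count was added after the data were seen, and only the first listed promoter of each gene was read. Among the 14 genes called lower with BCAA that had a promoter, 6 held a core (42.9%): Ctgf with 3, and Acta2, Amotl2, Cyr61, Pmp22 and Vgll3 with 1 each. Among the 4 called higher none did. The called genes Csrp1, Nuak1, Pak1, Ptx3, Tpm2, Tslp, Uap1 and Avpr1a held none. By number of cores, the median log2 fold change was 0.00 for the 8727 genes with 0 cores and -0.01 for the 894 with 1. It was -0.04 for the 49 with 2 and -0.12 for the 8 with 3 or more, Ctgf included. Of the 8 genes with 3 or more, only Ctgf was called, while C1r, Cnot6, Il1r1, Inf2, Podnl1, Sqrdl and Wtip lay between -0.22 and 0.14. The TEAD core was counted because Ctgf and Cyr61, chosen as low in this contrast, are known TEAD targets. Acta2, Amotl2 and Vgll3 stand in lists written with earlier results known. The shares are thus not independent evidence, and no test of them was made.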
